A study of Mus musculus with 9 samples.

Results

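The genes described here are 9 markers of radial glia and neural stem cells, Pax6, Fabp7, Slc1a3, Nes, Vim, Hopx, Tnc, Ptprz1 and Prom1, matched by symbol from a list of names. Each symbol matched 1 Ensembl mouse gene among the 41128 in the deposited tables, so 9 of 9 were measured. RNA came from the dorsal telencephalon, which forms the cerebral cortex and hippocampus, of newborn (P0) mice of the strain labelled B6:129SF2/J. There were 3 groups of 3 libraries each: mice labelled knockout for TCF4 (KO), mice labelled heterozygous for TCF4 (Het) and mice labelled wildtype (WT). The labels name no treatment in any group. The part of Tcf4 that was deleted, the cells in which it was deleted, and whether each library came from 1 pup are not given in the sources used here, so the p-values describe the spread among these libraries, which may be technical.

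Radial glia are the stem cells of the embryonic cortex. Their cell bodies line the ventricle, their fibres guide migrating neurons to the pial surface, and they divide to renew themselves and to give intermediate progenitors and neurons. Around birth many of them turn into astrocytes, and several genes used to mark radial glia stay on in astrocytes, oligodendrocyte precursors or ependymal cells. Tcf4 codes for a widely expressed basic helix-loop-helix factor, which pairs with proneural factors and binds the DNA letters called an E-box.

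Library totals ran from 26355671 to 29445788 counts in KO, from 24008445 to 29398411 in Het and from 22291940 to 23813314 in WT. Counts of the whole Tcf4 gene were 638, 633 and 611 CPM in KO (CPM is the read count relative to the library total, scaled here by the trimmed mean of M-values, TMM), 822, 652 and 719 CPM in Het and 712, 728 and 584 CPM in WT, so they do not check the labels, and each direction below rests on the labelled genotypes. On the leading principal component, with 64.1% of the variance, KO libraries scored -39.0 to -35.5, Het libraries -24.9 to -20.4 and WT libraries 54.3 to 64.5. The share of counts in processed pseudogenes was 0.0804% to 0.0939% in KO, 0.0917% to 0.10% in Het and 0.254% to 0.314% in WT. The mitochondrial share was 0.716% to 0.771% in KO, 0.769% to 0.840% in Het and 1.015% to 1.141% in WT, with each WT library above the others. In KO replicate 3 the X-inactivation gene Xist had 2730 counts and the Y-linked gene Ddx3y 2 counts. No other library had more than 3 Xist counts or fewer than 794 Ddx3y counts. Cortical markers were present in each group, with Emx1, a dorsal telencephalic factor, at 42.1 FPKM in KO, 38.2 FPKM in Het and 27.9 FPKM in WT, and Neurod6, a factor of cortical projection neurons, at 321, 295 and 173 FPKM in the same order of groups. Other cortical markers did not follow them: Slc17a7 averaged 21.4, 37.3 and 70.9 FPKM, Bcl11b 53.7, 52.7 and 74.3 FPKM and Tbr1 135, 132.5 and 130.9 FPKM in KO, Het and WT (FPKM is a read count divided by gene length and by library total). Six3, a factor of the ventral telencephalon, averaged 0.197 FPKM in KO, 0.215 FPKM in Het and 5.83 FPKM in WT, and Nkx2-1, another ventral factor, 0.339, 0.351 and 3.33 FPKM in the same order of groups. Whether these differences between the libraries play a part in the results below was not tested.

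The radial glia genes split into 2 sets. In KO tissue the cytoskeletal genes Vim and Nes, the transcriptional regulators Pax6 and Hopx, the apical membrane gene Prom1 and the matrix gene Tnc were higher than in WT, by 1.17-fold to 2.12-fold. The lipid-binding protein gene Fabp7, the glutamate transporter gene Slc1a3 and the receptor phosphatase gene Ptprz1 were lower, by 1.34-fold to 1.82-fold. Het tissue showed the same split against WT. All 9 genes passed the filter on low counts, and 9 of 9 were called in KO versus WT (edgeR's quasi-likelihood test, Benjamini-Hochberg adjusted p under 0.05 over 15271 genes), where 52.8% of all tested genes were called. The 9 genes were picked with earlier results of these data known. Their counts here and in every other comparison below therefore describe them and are not independent support. By direction 6 of 9 were higher, beside 26.5% of all genes, and 3 of 9 were lower, beside 26.3%. The CPM ranges of KO and WT did not overlap for any of the 9, which was so for 62.7% of all genes. The median log2 fold change was 0.41 for the 9 genes and 0.01 for all tested genes. In this bulk tissue, fewer cells of a type and less RNA per cell cannot be told apart.

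**Figure D1:**
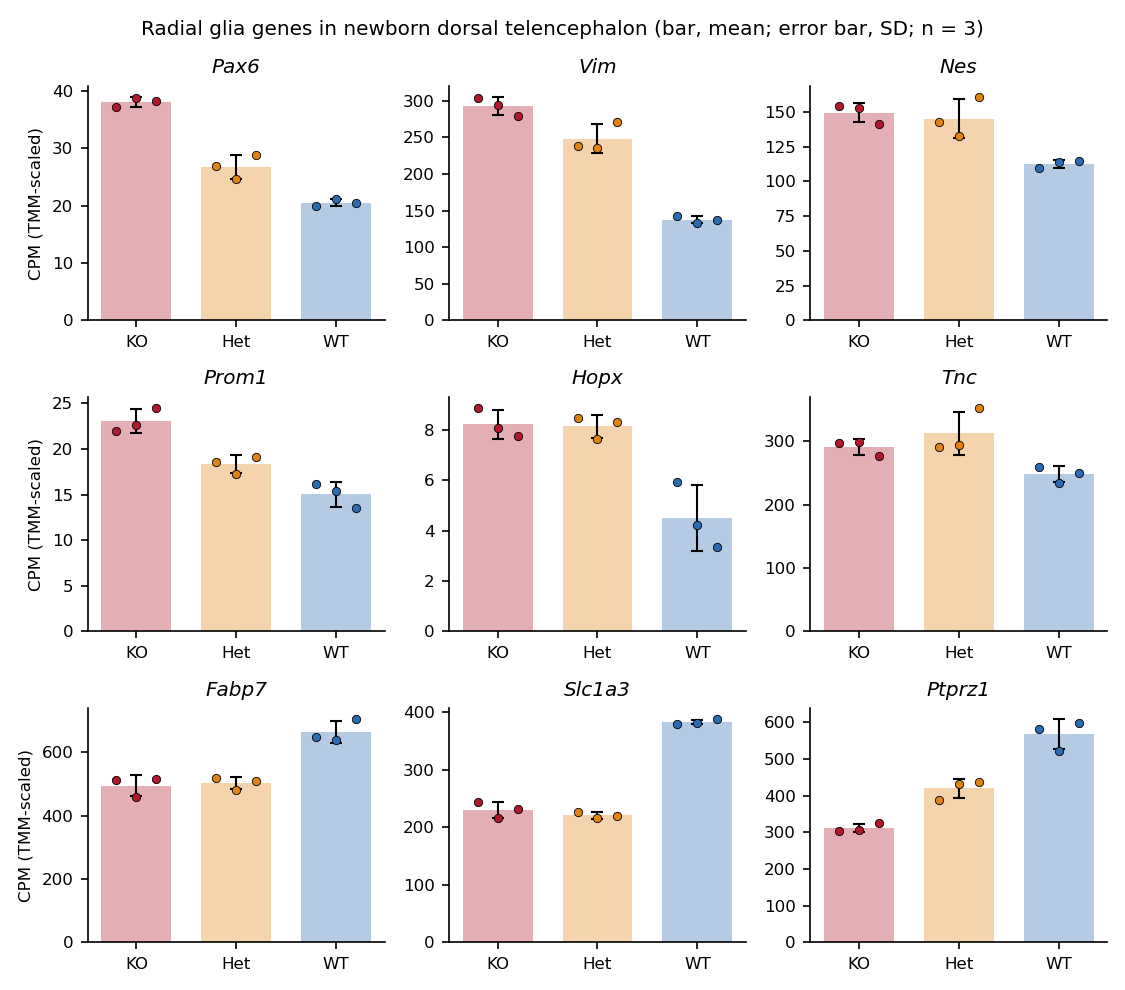
TMM-scaled CPM of each of the 9 radial glia genes. Points are the 3 libraries of KO, Het and WT from left to right, bars are means and error bars are SDs. In the first 6 panels the KO and Het points lie above the WT points, and in the panels of Fabp7, Slc1a3 and Ptprz1 they lie below them.

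To show the DNA beside which these genes start, the 250 bases before the RefSeq gene start were read for each of them (RefSeq sequences, build GRCm38.p6). All 9 genes matched, with 13 windows in all because some have more than 1 start. The letters CANNTG, the general E-box and its own reverse complement, occurred in 7 of 13 member windows and in 66.2% of 32851 windows of all genes. The narrower letters CAGGTG or CACCTG are the 2 strands of 1 word and a subset of CANNTG. They occurred in 1 of 13 member windows and in 17.2% of all windows. That 1 window, of Prom1, lies wholly in annotated exons of the gene. The 13 windows are not all separate: the 2 Tnc windows overlap and share the same CAAATG and CAACTG. A match is only a match of letters, and none says only that the letters are not in this window. The windows of 2 genes that were higher (Pax6, Tnc) and 2 that were lower (Slc1a3, Ptprz1) are printed, 5′ to 3′ on the gene's strand, chosen among windows that overlap no annotated exon of the gene. Capitals mark CANNTG.
Pax6 (chr2:105668646-105668895, plus strand): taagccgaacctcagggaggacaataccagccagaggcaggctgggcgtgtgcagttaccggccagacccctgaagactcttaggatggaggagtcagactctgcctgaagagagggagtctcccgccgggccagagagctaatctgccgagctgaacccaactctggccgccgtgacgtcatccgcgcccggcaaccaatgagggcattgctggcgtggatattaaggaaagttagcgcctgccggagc
Tnc (chr4:64047016-64047265, minus strand): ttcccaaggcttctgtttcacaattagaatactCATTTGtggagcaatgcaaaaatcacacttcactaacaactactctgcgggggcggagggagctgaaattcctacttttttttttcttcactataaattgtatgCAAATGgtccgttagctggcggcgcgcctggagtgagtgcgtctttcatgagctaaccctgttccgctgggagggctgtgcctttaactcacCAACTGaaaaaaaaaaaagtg
Slc1a3 (chr15:8710808-8711057, minus strand): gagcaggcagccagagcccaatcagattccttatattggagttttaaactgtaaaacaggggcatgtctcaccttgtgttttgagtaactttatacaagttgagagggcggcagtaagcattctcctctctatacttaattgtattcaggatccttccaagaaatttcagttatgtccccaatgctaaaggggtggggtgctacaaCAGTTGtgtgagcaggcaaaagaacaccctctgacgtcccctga
Ptprz1 (chr6:22875252-22875501, plus strand): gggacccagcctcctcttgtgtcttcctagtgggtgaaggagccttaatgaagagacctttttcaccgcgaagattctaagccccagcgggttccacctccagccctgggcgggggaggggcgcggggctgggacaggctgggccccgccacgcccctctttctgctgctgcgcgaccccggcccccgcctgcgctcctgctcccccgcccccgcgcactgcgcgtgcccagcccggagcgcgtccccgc
The Tnc window held 3 such words and the Slc1a3 window 1. The printed Pax6 and Ptprz1 windows held none. A Hopx window and a Prom1 window that also overlap no exon held none either and are not printed. Another Pax6 window, not printed, lies wholly in annotated exons of the gene and held 1 such word, CAAATG. Whether the word goes with the direction of a change was not tested.

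Vim (chromosome 2, 13573927 to 13582826, plus strand, build mm10), which encodes the intermediate filament vimentin of radial fibres, had the largest rise of the 9 in KO versus WT. It measured 304, 294 and 280 CPM in KO, 239, 235 and 271 CPM in Het and 143, 133 and 137 CPM in WT. Every KO library lay above every Het library, and every Het library above every WT library. Vim was 2.12-fold higher in KO than in WT (log2 fold change 1.09, SE 0.062, adjusted p = 4.4e-10) and 1.80-fold higher in Het than in WT (0.85, SE 0.062, adjusted p = 1.5e-08). Vimentin is also made by vessel wall and meningeal cells. Of 10 mural and meningeal fibroblast genes, 3 were higher, 1 was lower and 6 were not called in KO versus WT. None was at 0 in all 9 libraries. Their summed level was 211 to 223 FPKM in KO, 199 to 217 FPKM in Het and 138 to 155 FPKM in WT. Most of the sum came from Igfbp2 (means of 155, 149 and 112 FPKM in KO, Het and WT) and Rgs5 (44.9, 41.6 and 17.5 FPKM). Another gene of the list, Pdgfrb, averaged 5.96, 5.41 and 5.80 FPKM in the same order. Of 8 endothelial genes 3 were higher and 2 lower, with summed levels of 87.4 to 93.5 FPKM in KO, 95.3 to 105 FPKM in Het and 81.7 to 84.0 FPKM in WT. Beside the counts of both lists, 26.5% of all tested genes were higher and 26.3% lower in KO versus WT. The pericyte gene Rgs5 (log2 fold change 1.32, SE 0.076), the matrix gene Dcn (1.69, SE 0.33) and the growth factor binding gene Igfbp2 (0.43, SE 0.058) were higher and the smooth muscle gene Tagln lower (-1.11, SE 0.23). Among endothelial genes Flt1 (0.60, SE 0.083), Pecam1 (0.42, SE 0.079) and Cdh5 (0.26, SE 0.0895) were higher, and Slco1a4 (-2.75, SE 0.47) and Esam (-0.31, SE 0.0885) lower. Slco1a4 rested on few reads, with 7, 7 and 2 counts in KO and 24, 44 and 20 counts in WT. The part of vessel wall and meningeal cells in the Vim difference was not tested.

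Nes (chromosome 3, 87971078 to 87980451, plus strand) encodes nestin, the intermediate filament protein of neural stem cells. It measured 154, 153 and 141 CPM in KO, 143, 132 and 161 CPM in Het and 109, 114 and 114 CPM in WT. Both KO and Het lay above WT, and KO and Het overlapped. The rise was 1.33-fold in KO versus WT (log2 fold change 0.41, SE 0.064, adjusted p = 4.6e-05) and 1.29-fold in Het versus WT (0.37, SE 0.064, adjusted p = 1.9e-04).

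Pax6 (chromosome 2, 105668900 to 105697364, plus strand), the paired homeodomain factor of cortical radial glia, measured 37.2, 38.9 and 38.2 CPM in KO, 26.9, 24.7 and 28.9 CPM in Het and 19.96, 21.2 and 20.4 CPM in WT. The 3 genotypes formed 3 separate steps, with KO highest. Pax6 was 1.86-fold higher in KO than in WT (log2 fold change 0.89, SE 0.075, adjusted p = 4.8e-08) and 1.31-fold higher in Het than in WT (0.39, SE 0.076, adjusted p = 5.6e-04).

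Hopx (chromosome 5, 77086988 to 77115121, minus strand) encodes a small homeodomain protein that does not bind DNA by itself and that marks outer radial glia in primate cortex. It had the fewest reads, with 254, 212 and 233 counts in KO, 207, 225 and 240 counts in Het and 131, 95 and 78 counts in WT. In CPM these were 8.86, 8.07 and 7.74 in KO, 8.49, 7.61 and 8.30 in Het and 5.92, 4.23 and 3.36 in WT. KO and Het shared 1 range, and WT varied more than either. Hopx was 1.83-fold higher in KO than in WT (log2 fold change 0.87, SE 0.17, adjusted p = 3.0e-04) and 1.81-fold higher in Het than in WT (0.85, SE 0.17, adjusted p = 5.0e-04). Its exons share 412 bases with Hopxos on the opposite strand, and 26.2% of its 31-base words occur in transcripts of other genes, mostly Hopxos. Hopxos itself had at most 6 counts in any library. Because strand use is not given, reads of overlapping genes cannot be told apart here or for Prom1 and Tnc below.

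Prom1 (chromosome 5, 43993620 to 44102032, minus strand), which encodes the membrane glycoprotein prominin of apical protrusions, measured 21.9, 22.7 and 24.5 CPM in KO, 18.5, 17.3 and 19.2 CPM in Het and 16.1, 15.4 and 13.5 CPM in WT. As for Pax6, the 3 genotypes did not overlap. Prom1 was 1.53-fold higher in KO than in WT (log2 fold change 0.62, SE 0.088, adjusted p = 1.8e-05) and 1.22-fold higher in Het than in WT (0.29, SE 0.089, adjusted p = 0.014). The Het call was lost without WT replicate 3 (0.22, adjusted p = 0.085, with 0.0079 to 0.085 over the 19 alternatives). Prom1 shares 424 exonic bases with the opposite-strand gene Gm16401, which had 28 to 65 counts per library. Prominin is also found in ependyma and choroid plexus. Of 5 tested ependymal genes 1 was lower (Rsph1, log2 fold change -1.50, SE 0.175) and none higher in KO versus WT (8 genes summed to 10.7 to 12.6 FPKM in KO, 8.91 to 13.6 in Het and 13.6 to 19.2 in WT). Of 7 tested choroid plexus genes Ttr (4.95, SE 1.5) and Folr1 (1.70, SE 0.48) were higher and none lower (8 genes summed to 8.21 to 23.9 FPKM in KO, 1.89 to 15.9 in Het and 1.75 to 3.68 in WT). Folr1 rested on 23, 19 and 16 counts in KO and 9, 2 and 3 counts in WT. Beside the counts of both lists, 26.5% of all tested genes were higher and 26.3% lower. The part of ependyma and choroid plexus in the Prom1 difference was not tested.

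Tnc (chromosome 4, 63959785 to 64047015, minus strand) encodes tenascin C, a glycoprotein of the stem cell niche matrix. It measured 298, 299 and 277 CPM in KO, 291, 293 and 352 CPM in Het and 259, 234 and 251 CPM in WT. Het replicate 3 was the highest library, and KO and Het overlapped. The rise was the smallest of the 6 in KO versus WT, at 1.17-fold (log2 fold change 0.23, SE 0.070, adjusted p = 0.011), and 1.26-fold in Het versus WT (0.33, SE 0.070, adjusted p = 0.0011). The KO call was lost without WT replicate 2 (0.19, adjusted p = 0.051, with 3.4e-04 to 0.051 over the 19 alternatives). The opposite-strand gene 8030451A03Rik overlaps 176 exonic bases of Tnc and had at most 7 counts in any library.

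Ptprz1 (chromosome 6, 22875502 to 23052916, plus strand) encodes a receptor tyrosine phosphatase of radial glia and oligodendrocyte precursors, which binds tenascin C and pleiotrophin. It measured 304, 306 and 325 CPM in KO, 389.5, 432 and 438 CPM in Het and 583, 522 and 599.5 CPM in WT. KO lay below Het and Het below WT, with no overlap. Ptprz1 was 1.82-fold lower in KO than in WT (log2 fold change -0.87, SE 0.064, adjusted p = 9.1e-09) and 1.35-fold lower in Het than in WT (-0.44, SE 0.063, adjusted p = 3.2e-05).

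Slc1a3 (chromosome 15, 8634124 to 8710764, minus strand) encodes GLAST, the glutamate and aspartate transporter of radial glia and astrocytes. It measured 244, 216 and 231 CPM in KO, 227, 216 and 219.5 CPM in Het and 380.4, 382 and 388 CPM in WT. The WT libraries agreed closely and stood far above the others, while KO and Het overlapped. Slc1a3 was 1.66-fold lower in KO than in WT (log2 fold change -0.73, SE 0.055, adjusted p = 1.1e-08) and 1.74-fold lower in Het than in WT (-0.80, SE 0.055, adjusted p = 7.1e-09).

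Fabp7 (chromosome 10, 57784881 to 57788450, plus strand) encodes brain lipid-binding protein, a fatty acid carrier of radial glia and immature astrocytes. It measured 512, 457 and 516 CPM in KO, 519, 480.3 and 508 CPM in Het and 648, 638 and 704 CPM in WT. KO and Het again shared 1 range below WT. Fabp7 was 1.34-fold lower in KO than in WT (log2 fold change -0.42, SE 0.060, adjusted p = 1.7e-05) and 1.32-fold lower in Het than in WT (-0.40, SE 0.060, adjusted p = 4.5e-05).

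The genes of astrocytes and oligodendrocyte precursors, cells that also express Slc1a3, Fabp7 or Ptprz1, were lower as well. Of 15 tested astrocyte genes 13 were lower, 2 were not called and none was higher in KO versus WT (median log2 fold change -1.07). The water channel gene Aqp4 (-2.54, SE 0.15) and the transporter gene Slc6a11 (-1.77, SE 0.061) were among the lower genes. So was the calcium-binding protein gene S100b (-3.10, SE 0.55), on 3, 4 and 8 counts in KO and 44, 21 and 40 counts in WT. Of the same list, Gfap overlapped between KO (16.8 to 33.0 CPM) and WT (27.9 to 43.3 CPM). Sparcl1 averaged 378 CPM in KO and 377 CPM in WT. The 16 astrocyte genes summed to 977 to 1059 FPKM in KO, 1050 to 1119 FPKM in Het and 1855 to 2008 FPKM in WT. Much of the sum came from Cst3 (means of 307, 330 and 686 FPKM in KO, Het and WT) and Apoe (149, 152 and 438 FPKM). Of 7 tested oligodendrocyte precursor genes 7 were lower in KO (median -0.96), including the orphan receptor gene Gpr17 (-2.68, SE 0.17) and the transcription factor genes Olig1 (-1.13, SE 0.071) and Nkx2-2 (-1.12, SE 0.30), with sums of 56.2 to 69.5 FPKM in KO, 56.2 to 60.6 FPKM in Het and 117 to 123 FPKM in WT. Nkx2-2 had 21, 14 and 19 counts in KO and 30, 25 and 39 counts in WT. In Het versus WT 13 of the 15 and 6 of the 7 were lower. The share of all tested genes called lower was 26.3% in KO versus WT and 23.4% in Het versus WT. No gene of either list was at 0 in all 9 libraries. The part of these cells in the lower values of Slc1a3, Fabp7 and Ptprz1 was not tested.

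In Het versus WT, 9 of 9 radial glia genes were called, beside 45.9% of all genes. Again 6 were higher, beside 22.5%, and 3 were lower, beside 23.4%, and no CPM range overlapped, beside 53.6% of all genes. The median log2 fold change was 0.33 for the 9 genes and 0.01 for all tested genes. This comparison and KO versus WT share the WT libraries, so their like directions are not independent of each other.

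**Figure D2:**
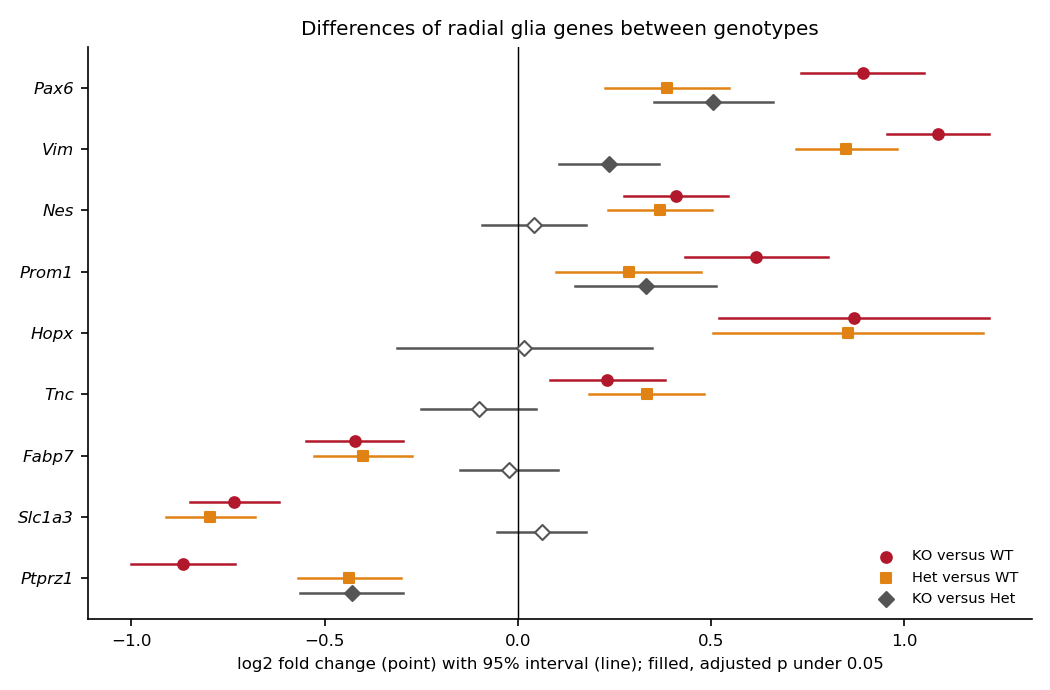
Log2 fold changes (points) with 95% intervals (lines) of the 9 genes in KO versus WT, Het versus WT and KO versus Het. Filled points have an adjusted p under 0.05. For Nes, Hopx, Tnc, Fabp7 and Slc1a3 the KO versus Het interval spans 0, whereas Pax6, Vim, Prom1 and Ptprz1 have 3 filled points each.

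KO and Het tissue differed in 4 of the 9 genes, beside 16.7% of all genes called in KO versus Het (median log2 fold change 0.04 for the 9 genes and 0.00 for all tested genes). Pax6 was 1.42-fold higher in KO (log2 fold change 0.51, SE 0.073, adjusted p = 1.4e-04), Prom1 was 1.26-fold higher (0.33, SE 0.086, adjusted p = 0.014) and Vim 1.18-fold higher (0.24, SE 0.061, adjusted p = 0.014), where 8.30% of all genes were higher. Ptprz1 was 1.35-fold lower (-0.43, SE 0.063, adjusted p = 1.6e-04), where 8.44% of all genes were lower. The CPM ranges of these 4 genes did not overlap between KO and Het, which was so for 33.4% of all genes. Of the 9 genes 3 stood in the order KO above Het above WT with no overlap, beside 5.25% of all genes, and 1 in the order KO below Het below WT, also beside 5.25%. The Vim call was lost without KO replicate 1 (adjusted p = 0.080), KO replicate 2 (0.055), Het replicate 1 (0.056) or Het replicate 2 (0.091), and the Prom1 call without KO replicate 3 (adjusted p = 0.0695) or Het replicate 2 (0.081) and in limma on log2(FPKM + 1) and log2(FPKM + 0.1) (0.055 and 0.0595). Over the 19 alternatives adjusted p ran from 0.0020 to 0.091 for Vim and from 0.0063 to 0.081 for Prom1. Without Het replicate 2 the count was 2 of 9, and without KO replicate 1 or 2 the count over all genes was 1467 or 1432 in place of 2556.

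For the other 5 genes KO versus Het did not pass the test. The 95% intervals of the log2 fold change were -0.15 to 0.10 for Fabp7, -0.05 to 0.18 for Slc1a3, -0.09 to 0.18 for Nes, -0.25 to 0.05 for Tnc and -0.31 to 0.35 for Hopx. The Hopx interval was the widest of the 5.

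Where the Het level stood between KO and WT was tested as Het against the midpoint of KO and WT on the log2 scale. Of the 9 genes 6 departed from the midpoint, beside 24.5% of all genes. All genes include those not called in KO versus WT, whereas each of the 9 was called there. The 6 lay on the KO side: Slc1a3 (-0.43, SE 0.048, adjusted p = 9.5e-06) and Fabp7 (-0.19, SE 0.052, adjusted p = 0.014) were below the midpoint, where 12.7% of all genes were, and Vim (0.31, SE 0.053, adjusted p = 5.1e-04), Hopx (0.42, SE 0.14, adjusted p = 0.034), Tnc (0.22, SE 0.060, adjusted p = 0.015) and Nes (0.16, SE 0.055, adjusted p = 0.039) above it, where 11.7% were. Of all called genes 48.0% lay above the midpoint, and with library totals in place of TMM factors 59.1% did. Pax6 (-0.06, interval -0.20 to 0.08), Prom1 (-0.02, interval -0.18 to 0.14) and Ptprz1 (-0.0033, interval -0.12 to 0.11) had Het levels that did not depart detectably from halfway. The calls of Slc1a3 and Vim held in all 18 alternatives. The calls of the other 4 were lost when some libraries were left out. Without Het replicate 3, the count was 3 of 9 and the values of Nes (0.09, adjusted p = 0.23, with 0.0093 to 0.23 over the alternatives) and Tnc (0.13, adjusted p = 0.095, with 3.4e-04 to 0.095) were lower by over 1.5 times. The Nes call was also lost without KO replicate 1 (0.054), 2 (0.057) or 3 (0.067), Het replicate 1 (0.055) or WT replicate 1 (0.068), 2 (0.053) or 3 (0.057). The Hopx call was lost without KO replicate 2 (0.064) or 3 (0.056), Het replicate 1 (0.091), 2 (0.051) or 3 (0.094) or WT replicate 2 (0.053) or 3 (0.0685), with adjusted p from 0.0040 to 0.094 over the 18 alternatives. The Fabp7 call was lost without Het replicate 2 (0.098) and in limma on log2(FPKM + 1) (0.051), with 0.0038 to 0.098 over the alternatives.

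Per unit of length the genes spanned a wide range of levels, and their order changed with genotype. Fabp7 was highest in each of the 9 libraries, at 591 ± 44 FPKM in KO, 606 ± 28 FPKM in Het and 772 ± 41 FPKM in WT (SD, n = 3). Next came Vim and then Slc1a3 in each KO and Het library, and Slc1a3 and then Vim in each WT library. Vim had 285 ± 8.1 FPKM in KO, 245 ± 22 FPKM in Het and 131 ± 6.5 FPKM in WT, and Slc1a3 had 135 ± 8.3, 130.1 ± 4.1 and 218 ± 2.8 FPKM in the same order of groups. The Vim to Slc1a3 ratio of FPKM was 2.08, 2.27 and 2.02 in KO, 1.76, 1.82 and 2.07 in Het and 0.63, 0.584 and 0.589 in WT. Tnc and its receptor gene Ptprz1 changed places too, with a Tnc to Ptprz1 ratio of 1.32, 1.31 and 1.15 in KO, 1.01, 0.915 and 1.08 in Het and 0.598, 0.604 and 0.563 in WT. Below them came Nes, at 33.6 ± 1.1 FPKM in KO, 33.0 ± 3.5 FPKM in Het and 24.7 ± 0.35 FPKM in WT, then Pax6, at 21.8 ± 0.63, 15.5 ± 1.3 and 11.5 ± 0.21 FPKM. Hopx and Prom1 were lowest, and their ranges overlapped in KO (6.61 to 7.36 and 6.46 to 7.41 FPKM) and in WT (2.74 to 4.91 and 3.90 to 4.74 FPKM). Tnc and Ptprz1 overlapped in Het, and no other neighbours in the order overlapped within a genotype. The 9 genes together summed to 1108 to 1199 FPKM in KO, 1087 to 1198 FPKM in Het and 1219 to 1322 FPKM in WT, to which Fabp7 added the most.

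**Figure D3:**
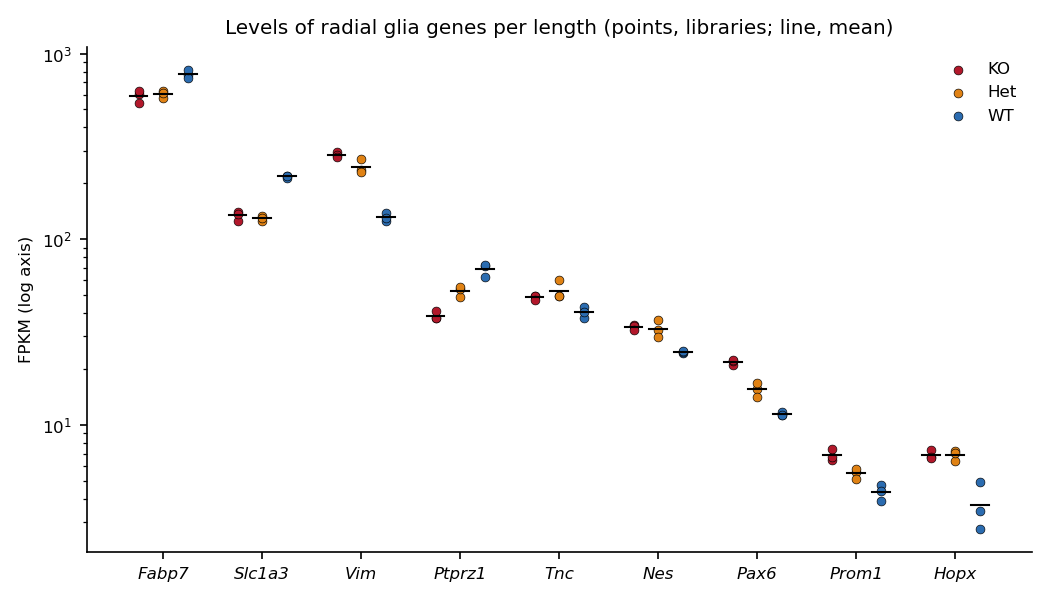
Deposited FPKM of the 9 genes on a log axis, ordered by the WT level. Points are the libraries of KO, Het and WT from left to right within each gene, and lines are means. Vim lies above Slc1a3 in KO and Het and below it in WT.

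Among themselves, the genes were compared by the root mean square difference of log2 CPM over the 9 libraries after each gene's mean was subtracted. Nes and Tnc were the most alike pair (0.10), followed by Pax6 and Prom1 (0.14), and Slc1a3 and Vim the least alike (0.82). Among 12504 other genes, the nearest to each were Ube2c and Pimreg for Pax6 (0.06 and 0.07), Mdk and Cald1 for Vim (0.06 and 0.09), Setd1a and Atf6 for Nes (0.04 and 0.05), Kif21a and Mxd3 for Prom1 (both 0.06), Tesc and Zic5 for Hopx (0.11 and 0.12), Wdr66 and Smg5 for Tnc (0.04 and 0.05), Plod1 and Sema6b for Fabp7 (both 0.05), Rims3 and Rap1gap for Slc1a3 (0.05 and 0.06) and Stk32c and Map3k5 for Ptprz1 (0.05 and 0.07).

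Other genes of radial glia went in both directions, as did all tested genes. Genes called higher or lower here and in the list counts above and below had an adjusted p under 0.05 in edgeR's quasi-likelihood test over all tested genes. Beside these counts, 26.5% of all tested genes were higher and 26.3% lower in KO versus WT. The shares were 22.5% and 23.4% in Het versus WT and 8.30% and 8.44% in KO versus Het. No list was tested against these shares. Of 18 tested radial glia transcription factors, 7 were higher and 4 lower in KO versus WT (median log2 fold change 0.15), 5 higher and 7 lower in Het versus WT (-0.13) and 6 higher and none lower in KO versus Het (0.27). The highest were the homeobox gene Emx2 (1.48, SE 0.11), the nuclear factor gene Nfib (1.15, SE 0.11) and the LIM homeobox gene Lhx2 (0.90, SE 0.082), all of cortical patterning or glial timing. The lowest were the bHLH inhibitor gene Id4 (-0.63, SE 0.086), the Notch target Hey1 (-0.47, SE 0.081) and Tcf7l1, an effector of Wnt signalling (-0.46, SE 0.16). Sox2, a stem cell factor, was not called in KO versus WT (0.07, SE 0.061, adjusted p = 0.34). It was lower in Het versus WT (-0.35, SE 0.062) and higher in KO versus Het (0.42, SE 0.061). All tested genes had medians of 0.01, 0.01 and 0.00 in these comparisons.

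Of 20 further radial glia genes for membrane, matrix or metabolic proteins, 7 were higher and 8 lower in KO versus WT (median 0.05), 5 and 8 in Het versus WT (0.01), and 3 and 1 in KO versus Het (0.09). Cdon (1.92, SE 0.10) and Gas1 (0.92, SE 0.087), whose products bind Sonic hedgehog, were higher in KO than in WT, and so was the N-cadherin gene Cdh2 (0.41, SE 0.054). Lower were the glutamate transporter gene Slc1a2 (-1.51, SE 0.080), the lipase gene Pla2g7 (-1.30, SE 0.16) and the membrane protein gene Ttyh1 (-0.96, SE 0.058). Of 10 genes named as outer radial glia markers in primate cortex, 2 were higher (Gli3, 0.65, and Lifr, 0.37) and 5 lower (median -0.42), led by Acsbg1 (-1.27, SE 0.082), Hs6st2 (-1.10, SE 0.067) and Fam107a (-0.82, SE 0.17). In Het versus WT 2 of these were higher and 3 lower (-0.13), and in KO versus Het 1 and 2 (-0.05). Hopx, itself an outer radial glia marker, was higher in KO.

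Of 14 partners of Ptprz1 and tenascin C, 6 were lower and 2 higher in KO versus WT (median -0.19), 8 lower and 4 higher in Het versus WT (-0.22), and 4 lower and 1 higher in KO versus Het (-0.05). The ligands moved in opposite directions. Midkine (Mdk) was higher in KO than in WT (1.05, SE 0.060), as was the integrin gene Itgb1 (0.36, SE 0.061), and pleiotrophin (Ptn) lower (-0.53, SE 0.067). The neuronal binding partner Cntn1 (-1.59, SE 0.067) and the proteoglycan gene Bcan (-1.97, SE 0.058) were lower. Of 12 apical junction and polarity genes, 5 were higher and 1 lower in KO versus WT (median 0.12), with the polarity scaffold gene Pard3 at 0.54 (SE 0.094), the catenin gene Ctnna1 at 0.39 (SE 0.0665) and the endocytic adaptor gene Numbl at -0.14 (SE 0.051). The counts were 5 and 3 in Het versus WT (0.01), and 2 and 1 in KO versus Het (0.14).

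Genes of dividing cells and of intermediate progenitors, which radial glia give rise to, were mostly higher. Of 16 proliferation genes 15 were higher in KO versus WT (median 0.87) and 14 in Het versus WT (0.51), with sums of 343 to 364 FPKM in KO, 278 to 305 FPKM in Het and 197 to 203 FPKM in WT. They included Kif11 (1.19, SE 0.095), Mki67 (1.16, SE 0.17) and Ccna2 (1.11, SE 0.086). Of 11 tested intermediate progenitor genes 9 were higher in each of these comparisons (medians 1.28 and 0.75), with sums of 293 to 330 FPKM in KO, 239 to 259 FPKM in Het and 144 to 154 FPKM in WT. The transcription factors Neurog2 (3.47, SE 0.11), Eomes (2.44, SE 0.14) and Neurod1 (2.17, SE 0.091) led them. In KO versus Het 9 proliferation genes and 6 intermediate progenitor genes were higher and 1 of each list lower. Of 8 ventral progenitor genes, which mark the neighbouring germinal zone, 1 was higher and 4 were lower in KO versus WT. Six3 (-4.91, SE 0.31), Nkx2-1 (-3.32, SE 0.24) and Dlx2 (-0.46, SE 0.089) had the lowest values. Of 7 cortical markers 3 were higher, among them Neurod6 (0.85, SE 0.10) and Emx1 (0.55, SE 0.082), and 2 were lower, the transporter gene Slc17a7 (-1.77, SE 0.058) and the layer marker Bcl11b (-0.50, SE 0.069). Beside the counts of these lists, 26.5% of all tested genes were higher and 26.3% lower in KO versus WT.

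**Figure D4:**
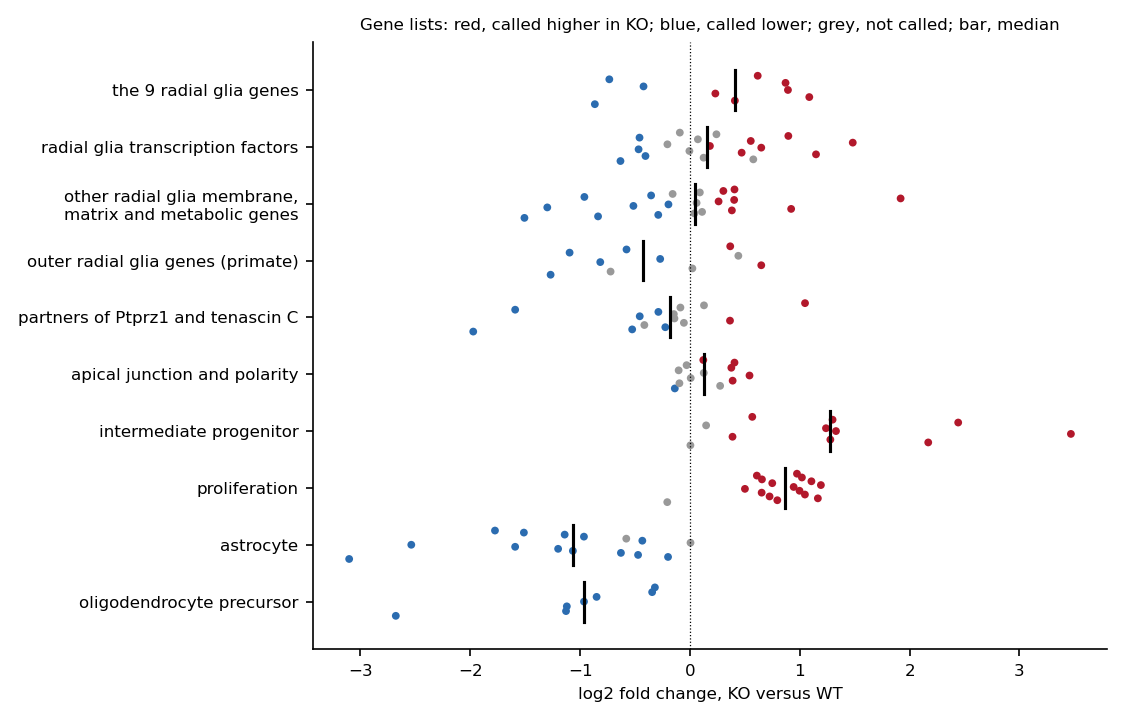
Log2 fold changes in KO versus WT of the tested genes of 10 lists, 1 point per gene, with the median as a bar. Red genes were called higher in KO, blue genes lower and grey genes were not called. The 9 radial glia genes fall on both sides of 0, while astrocyte and oligodendrocyte precursor genes lie mostly below 0 and proliferation and intermediate progenitor genes mostly above.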

How the data were processed

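Raw read counts per Ensembl gene and FPKM values were deposited by the authors for 9 libraries of total RNA (NEBNext Ultra RNA kit, per the labels' protocols). The submitters' processing notes name DESeq 1.10.1, HTSeq 0.6.1, TopHat2 2.0.9, Bowtie2 2.0.6 and the build mm10, with no roles. Strand use and the treatment of reads matching several genes are not given in the sources used here. The deposited FPKM values are counts over gene length and library total (largest log2 difference 1.4e-14), not a second measurement.

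Symbols and mm10 positions came from GENCODE M21. Genes were kept by filterByExpr (minimum count 10, minimum total 15), leaving 15271 genes with 99.95% of counts. TMM factors and robust quasi-likelihood fits of all 9 libraries were made with edgeR 4.0.16 in R 4.3.3 (limma 3.58.1), with Benjamini-Hochberg adjustment over all tested genes at 0.05. The standard error (SE) is the absolute log2 fold change over the square root of F. Likeness used log2 CPM (prior count 2) and genes with a mean of at least 1.

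The members and lists were chosen with earlier results of these data known. Some genes are counted in more than 1 list. Olig2 is in the ventral progenitor and oligodendrocyte precursor lists, and Emx1 in the transcription factor and cortical lists. Gli3 is in the transcription factor and outer radial glia lists, and Cdh2 in the membrane and junction lists. All 9 members are named, and from other lists up to 3 called genes per direction with the largest KO versus WT change. Sox2, Xist, Ddx3y and the overlapping genes fall outside that rule, and some genes that it takes are not reported here. Alternatives were 3 other scalings, no filter or at least 1 CPM in 3 libraries, DESeq2 1.42.0, limma on FPKM as log2(FPKM + pseudocount of 1 or 0.1), a fit of only the genotypes compared, a replicate block, and each library left out in turn. Figures used Python 3.11.15 and matplotlib 3.10.9.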

Additional observations from a re-analysis of the deposited data

How the results depend on the processing

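Across 675 member fold changes recomputed under the alternatives, 646 kept their side of the threshold, 29 lost their call and 0 called values turned direction. Fold changes that passed the test in no setting were counted by that side alone. Of the 29, 19 were in Het versus the midpoint of KO and WT and 8 in KO versus Het. All 9 genes were called in KO versus WT and in Het versus WT under each alternative except when a library was left out, where the counts were 8 to 9 in both. Leaving out 1 library gave 2 to 4 called members in KO versus Het (4 as reported) and 3 to 5 against the midpoint (6 as reported), with fewer samples fitted. Over all genes it gave 7050 to 8365 calls in KO versus WT, 5806 to 7068 in Het versus WT, 1432 to 2561 in KO versus Het and 2854 to 3727 against the midpoint. With the replicate block 9, 9, 4 and 5 members were called in the 4 comparisons, and of all genes 7775, 6641, 2166 and 3339. Replicate numbers did not pair the samples: deviations of same-numbered libraries correlated at -0.106 to 0.084. The block ended 1 member call, that of Nes against the midpoint (0.16, adjusted p = 0.0655, with 0.0093 to 0.23 over the alternatives). Limma on log2(FPKM + 1) called 3 members in KO versus Het and 5 against the midpoint. The cause of the lost calls was not tested. Hopx had the fewest counts of the 9 genes, 78 to 254 per library, and the largest SE in each comparison (0.17 in KO versus WT), and counting error was not separated from the spread between libraries.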
